A study of Homo sapiens with 9 samples.

Results

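Semaphorins are guidance ligands, and neuropilins and plexins are the receptors that bind them. The 10 genes described here are 6 ligands (SEMA3A, SEMA3B, SEMA3C, SEMA3F, SEMA4B and SEMA7A), both neuropilins (NRP1 and NRP2) and 2 plexins (PLXNA1 and PLXNB2). They were found by symbol among the 60612 genes of the expression table, and all 10 were present. The list of 10 was drawn up with the values of these same libraries known. The values of its genes are therefore given as a description, with fold changes and errors, and where the fit's calls for them are counted nothing is read from the counts. Beside them stand counts for the whole family of 31 genes, which are 20 semaphorins, 2 neuropilins and 9 plexins taken by name. The 21 genes outside the list are also counted on their own.

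The cells were MDA-MB-231, an established human triple-negative breast cancer line with a mesenchymal-like character. They were transfected with a control siRNA, with MILIP siRNA1 or with MILIP siRNA2 and harvested after 48 hours, and 3 libraries per group were sequenced. MILIP is a long noncoding RNA, and the comparison asked what its knockdown changes. The treatment labels name MILIP, whereas the transfection protocol calls the same reagents PLANE siRNAs. All 9 libraries were transfected with some siRNA, so none shows untransfected cells, and all come from 1 line. Whether each library is its own culture is not stated in the labels, so p-values here reflect library-to-library spread that may be no more than technical.

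Semaphorins were first described as signals that steer growing axons. Secreted class 3 semaphorins bind a neuropilin, which has almost no signalling domain of its own and passes the signal to a plexin beside it. Plexins act inside the cell on small GTPases and so on the cytoskeleton and on adhesion. Membrane-bound semaphorins such as SEMA4B mostly bind plexins directly, and SEMA7A, held in the membrane by a lipid anchor, also binds integrins. Neuropilins also bind vascular endothelial growth factors. In tumours the family is known for roles in cell migration, invasion and the growth of blood vessels.

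Short stretches of the 3′ untranslated regions (UTRs) are shown first, because 4 of the 10 genes hold a 7-base word there that an earlier analysis of these same libraries linked to transcripts lowered by siRNA1. That word is AATTCCA or its form shifted by 1 base, ATTCCAA. It was searched on the transcript strand in the longest annotated UTR of each gene (GENCODE v29, GRCh38). The same search found it in 23.8% of the 12589 tested genes with an annotated 3′ UTR, more often in longer UTRs. Nothing is read from the count of 4. Each line gives 30 bases, 5′ to 3′, with the word in capitals. Where both forms overlap, the capitals show all 8 letters. The last line shows the same 8 letters in an annotated exon of MILIP itself. MILIP also holds ATTCCAA within chr17:81928136-81928165. It holds GACCCTA, a word linked in the same way to siRNA2, within chr17:81930472-81930501.
SEMA4B, chr15:90228919-90228948, plus strand: gtttaaaaaacAATTCCAAatgtgaaacta
NRP1 first site, chr10:33177541-33177570, minus strand: actgtaacttaAATTCCAAactatgactac
NRP1 next site, chr10:33177520-33177549, minus strand: tatgactactacATTCCAAagaaacagttg
NRP2, chr2:205776721-205776750, plus strand: tcctttttgttgATTCCAAaccaacaaacc
SEMA3A first site, chr7:83960939-83960968, minus strand: aagctgatgaatATTCCAAaacgtggttgg
SEMA3A next site, chr7:83960604-83960633, minus strand: tttgttttaaaAATTCCAAtggtgtgctgc
SEMA3A last site, chr7:83957371-83957400, minus strand: cacgttcaagtaAATTCCActgatagatct
MILIP, chr17:81930349-81930378, plus strand: ggagtcagggcAATTCCAAccaagaaactg

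Libraries held 15281220 to 19759371 counts, and 15345 genes had enough counts to be tested. MILIP had 133, 126 and 148 counts in the 3 control libraries, against 19, 11 and 37 for siRNA1 and 10, 19 and 6 for siRNA2. Its level was 15.0% of control with siRNA1 and 7.54% with siRNA2 (edgeR quasi-likelihood test, adjusted p = 2.51e-09 and 5.34e-11). The exact two-sided permutation test gave 0.1 for each siRNA, the smallest p that 3 against 3 libraries allow. The 5 markers of the line (VIM, CD44, AXL, CAV1 and KRT7) summed to 6898 to 7318 CPM, the count relative to the scaled library size, in control, 5551 to 5967 with siRNA1 and 5749 to 5840 with siRNA2. VIM carried most of that sum, while AXL stood at 10.3% and CAV1 at 33.2% of control with siRNA1 and KRT7 at 196%. Luminal markers summed to 10.4 to 14.7 CPM over the 9 libraries.

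The order of levels within the family was read from FPKM, which is scaled by gene length. SEMA7A was the most abundant of the 31 genes in each group, at 72.3 ± 3.45 FPKM in control (SD, n = 3). PLXNB2 and PLXNA1 followed in control at 44.5 ± 1.96 and 40.8 ± 4.85 FPKM, and their libraries overlapped. SEMA6B at 29.96 ± 1.42, NRP1 at 21.6 ± 1.18 and SEMA4B at 14.7 ± 0.252 FPKM came next. Among the listed class 3 ligands the order in control was SEMA3C (7.24 ± 0.794), SEMA3F (4.40 ± 0.567), SEMA3B (2.56 ± 0.185) and SEMA3A (0.700 ± 0.0794). NRP2 stood at 0.983 ± 0.110 FPKM, so NRP1 exceeded it 22.2-fold. SEMA7A ranked 586 of the 15345 tested genes by FPKM in control, 811 with siRNA1 and 179 with siRNA2.

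Summed over the family, ligand RNA was lowest with siRNA1 and highest with siRNA2. The 20 semaphorins together gave 148, 151 and 145 FPKM in control, 112, 102 and 108 after siRNA1, and 308, 282 and 284 after siRNA2. The 3 groups did not overlap. Neuropilins summed to 22.6 ± 1.14 FPKM in control, 7.56 ± 0.161 with siRNA1 and 28.8 ± 0.310 with siRNA2. Plexins took another order, with 110 ± 9.06 in control, 127 ± 3.96 with siRNA1 and 163 ± 3.16 with siRNA2. The ratio of semaphorin to plexin FPKM was thus 1.35 ± 0.0906 in control, 0.848 ± 0.0430 with siRNA1 and 1.78 ± 0.119 with siRNA2. SEMA7A made up 48.9% of the semaphorin sum in control, 51.9% with siRNA1 and 64.4% with siRNA2. SEMA7A and both neuropilins are listed genes, chosen with these values known. The sums are therefore a description, and nothing is read from their order. In these bulk libraries fewer cells with a transcript and less of it per cell cannot be told apart.

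**Figure D1:**
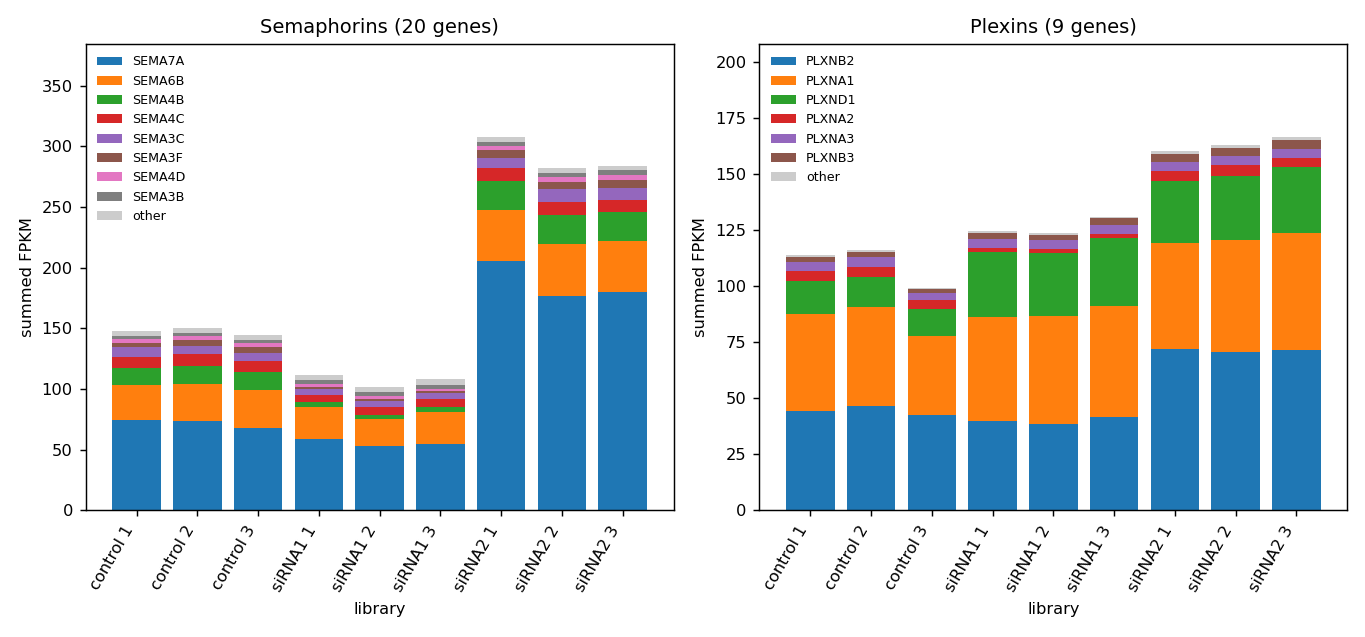
Summed FPKM (y axis) of the semaphorins (left) and the plexins (right) in each of the 9 libraries (x axis), with 1 colour per gene and the low genes pooled as other. SEMA7A fills most of the taller siRNA2 bars on the left, and the plexin bars of both siRNA groups stand above the control bars.

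SEMA4B, a transmembrane class 4 semaphorin, had the widest separation between the siRNAs among the 10 genes. Its FPKM values were 14.63, 14.98 and 14.49 in control, 4.21, 4.03 and 4.43 under siRNA1, and 23.69, 23.50 and 23.82 under siRNA2. The 3 groups were far apart and tight within themselves. Against control the log2 fold change was -1.82 (SE 0.066) with siRNA1, or 28.2% of control, and 0.69 (SE 0.060) with siRNA2. Between the siRNAs it was 5.70-fold, and 1.19% of tested genes had a larger change in either direction there.

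SEMA7A, the lipid-anchored ligand of PLXNC1 and of β1 integrin, was lower with siRNA1 and far higher with siRNA2. The control libraries gave 74.78, 73.65 and 68.32 FPKM, the siRNA1 libraries 59.10, 53.36 and 54.57, and the siRNA2 libraries 205.76, 177.16 and 179.79. No library crossed into another group, and 1 siRNA2 library stood above the other pair. The log2 fold change was -0.40 (SE 0.065) with siRNA1 and 1.38 (SE 0.065) with siRNA2, or 260% of control.

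SEMA3F, a secreted ligand that prefers NRP2, gave 3.75, 4.77 and 4.69 FPKM in control, 2.02, 1.47 and 1.79 under siRNA1, and 6.04, 6.22 and 6.80 under siRNA2. The siRNA1 libraries all lay below control and the siRNA2 libraries all above. The log2 fold changes were -1.35 (SE 0.122) and 0.53 (SE 0.107). SEMA3C, a secreted ligand that can bind either neuropilin, followed the same order with smaller steps. Its values were 8.11, 7.07 and 6.55 FPKM in control, 4.68, 5.49 and 4.57 under siRNA1, and 8.86, 10.41 and 9.74 under siRNA2. The groups did not overlap, and the log2 fold changes were -0.59 (SE 0.090) and 0.42 (SE 0.086).

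SEMA3A and SEMA3B did not separate the siRNAs. SEMA3A, the class 3 ligand best known for collapsing axon growth cones through NRP1, was low throughout, at 0.76, 0.73 and 0.61 FPKM in control, 0.43, 0.44 and 0.51 with siRNA1, and 0.40, 0.51 and 0.45 with siRNA2. Both siRNA groups lay below control and overlapped each other. The log2 fold changes were -0.61 (SE 0.161) and -0.63 (SE 0.160), and siRNA2 differed from siRNA1 by -0.01 with a 95% interval from -0.36 to 0.33.

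SEMA3B, a secreted ligand often described as a tumour suppressor, lay on the other side of control. It gave 2.35, 2.70 and 2.63 FPKM in control, 3.63, 3.33 and 3.53 with siRNA1, and 3.25, 3.65 and 4.06 with siRNA2. Both siRNA groups were above control and overlapped each other. Its log2 fold changes were 0.42 (SE 0.103) and 0.51 (SE 0.102), with a 95% interval from -0.12 to 0.29 for siRNA2 against siRNA1.

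Both neuropilins were lower with siRNA1 and higher with siRNA2. NRP1, the co-receptor of SEMA3A and of VEGFA, gave 22.67, 21.84 and 20.34 FPKM in control, 6.78, 7.06 and 6.93 with siRNA1, and 27.05, 27.00 and 27.34 with siRNA2. Libraries within each siRNA group were nearly equal and no groups overlapped. The log2 fold change was -1.67 (SE 0.058) with siRNA1, or 31.5% of control, and 0.33 (SE 0.055) with siRNA2, or 125% of control.

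NRP2, the co-receptor of SEMA3F and of VEGFC, was far scarcer. It gave 0.87, 1.09 and 0.99 FPKM in control, 0.61, 0.65 and 0.65 with siRNA1, and 1.53, 1.71 and 1.83 with siRNA2, again without overlap. Its log2 fold changes were -0.64 (SE 0.115) and 0.78 (SE 0.104). Because NRP1 was lowered more than NRP2 with siRNA1, the ratio of NRP1 to NRP2 FPKM was 10.9 ± 0.227 there, against 22.2 ± 3.34 in control and 16.1 ± 1.40 with siRNA2. Endothelial markers, which accompany neuropilins in vessels, summed to 4.99 to 7.59 CPM in control, 3.82 to 5.51 with siRNA1 and 8.58 to 9.78 with siRNA2. Of those 4 genes (PECAM1, CDH5, VWF and TEK) 1 had enough counts to be tested, and none was at 0 in every library of a group. Their part in the neuropilin values was not tested.

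PLXNA1, the plexin that most often pairs with NRP1, differed little between groups. It gave 43.32, 43.96 and 35.25 FPKM in control, 46.45, 48.07 and 49.31 with siRNA1, and 47.60, 50.24 and 51.92 with siRNA2. Both siRNA groups lay above control, and they overlapped each other. The log2 fold changes were 0.21 (SE 0.065) and 0.29 (SE 0.065), and siRNA2 differed from siRNA1 by 0.08 with a 95% interval from -0.05 to 0.22. The lowest control library carried much of the first value. Without control replicate 3 it was 0.094 and no longer called.

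PLXNB2, a receptor of class 4 semaphorins, gave 44.29, 46.61 and 42.71 FPKM in control, 40.01, 38.63 and 41.85 under siRNA1, and 71.84, 70.56 and 71.70 under siRNA2. The siRNA1 libraries lay just under control and the siRNA2 libraries well above. The log2 fold changes were -0.18 (SE 0.055) and 0.68 (SE 0.055). Without control replicate 2 the siRNA1 value was -0.14 and no longer called. PLXNB2 was 1.10 ± 0.10 times PLXNA1 by FPKM in control, 0.838 ± 0.0304 times with siRNA1 and 1.43 ± 0.0683 times with siRNA2.

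**Figure D2:**
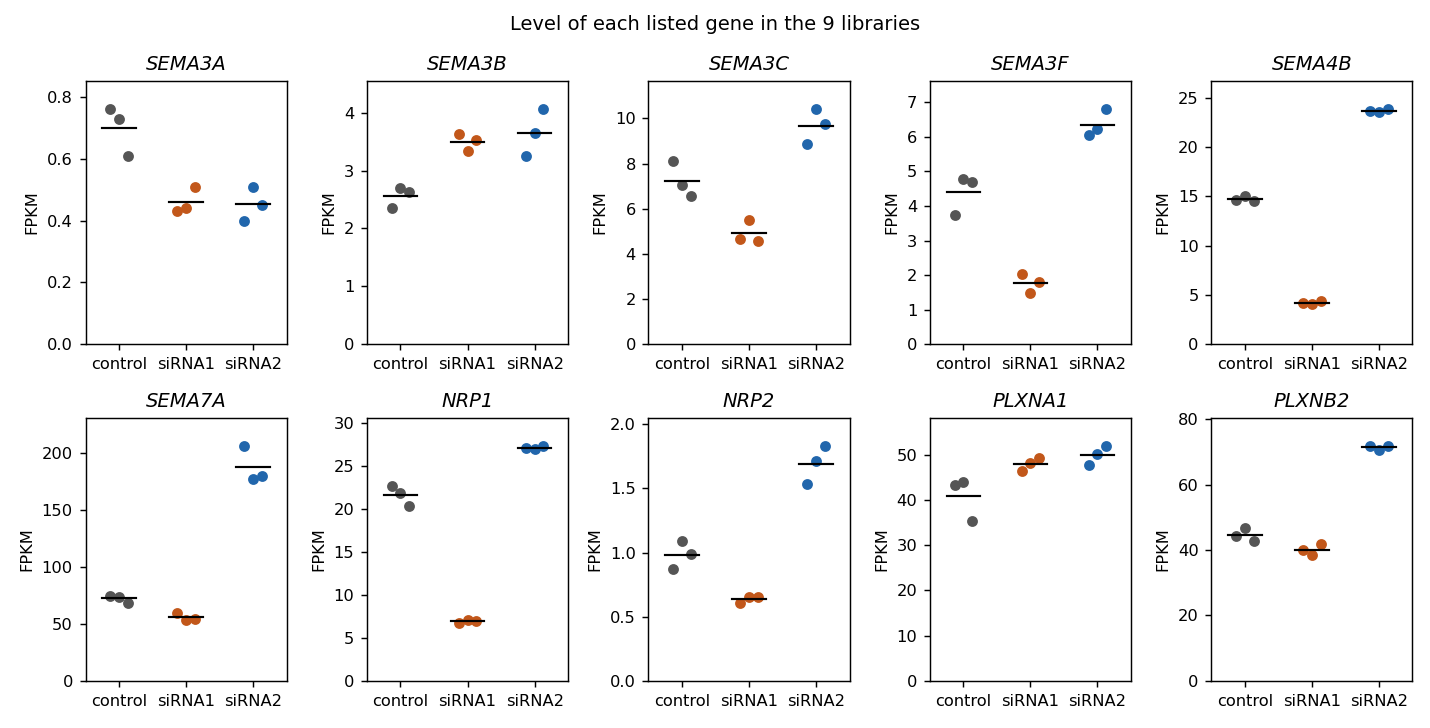
FPKM (y axis, starting at 0) of each of the 10 listed genes in the 3 libraries of each group (points), with the group mean as a line. In 7 panels the siRNA1 points lie below control and the siRNA2 points above. SEMA3B and PLXNA1 lie above control with both siRNAs and SEMA3A below.

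With siRNA1, 2 of the 10 listed genes were higher than control and 8 lower at an adjusted p below 0.05 (edgeR quasi-likelihood test, Benjamini-Hochberg over all tested genes). Of all tested genes, 50.4% passed that threshold, 25.1% higher and 25.3% lower. With siRNA2, 9 were higher and 1 lower, beside 56.1% of all tested genes passing, 27.2% higher and 28.9% lower. Between the siRNAs 7 were higher with siRNA2 and none lower, beside 60.4% of all genes passing and 28.4% higher. Libraries of siRNA1 and control did not overlap for any of the 10 genes, nor did those of siRNA2 and control, as for 53.8% and 61.8% of all tested genes. Between the siRNAs the libraries of SEMA3A, SEMA3B and PLXNA1 overlapped and those of the other 7 did not, as for 65.5% of all tested genes. The list was made with these values known, so nothing is read from its counts. The comparisons with control share the same 3 control libraries. Lower with siRNA1 and higher with siRNA2 described 7 of the 10 genes and 858 of all tested genes (5.59%).

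Of the 31 genes of the whole family 26 were tested. SEMA3E, SEMA3G, SEMA4A, SEMA5A and SEMA5B had too few counts, with at most 16 in any library. With siRNA1, 5 of the 26 rose and 12 fell, with a median log2 fold change of -0.24 beside 0.0032 over all tested genes. With siRNA2, 17 rose and 3 fell, with a median of 0.46 beside -0.01. Set against siRNA1, siRNA2 gave 14 higher and 1 lower, with a median of 0.67 beside -0.03. Of all tested genes, 25.1% rose and 25.3% fell with siRNA1, and 27.2% rose and 28.9% fell with siRNA2. Between the siRNAs 28.4% of all tested genes were higher with siRNA2 and 32% lower. By class, 8 of 15 tested semaphorins and both neuropilins fell with siRNA1, but 2 of 9 plexins. With siRNA2, 10 semaphorins, both neuropilins and 5 plexins rose. In all, 10 of the 26 genes were lower with siRNA1 and higher with siRNA2, none had the opposite pattern, 4 were higher with both and 1 was lower with both. Among all tested genes these patterns held 5.59%, 4.34%, 11.8% and 11.1%. The 26 include the 10 listed genes, which supply 8 of the 12 lower with siRNA1 and 9 of the 17 higher with siRNA2. They also supply 7 of the 14 higher with siRNA2 than with siRNA1. Of the 10 lower with siRNA1 and higher with siRNA2, 7 are listed, and 3 of the 16 other tested genes shared that pattern. The family was taken whole by name, but genes listed with these values known thus supply much of its counts. The counts of the 16 others depend on which genes were listed.

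**Figure D3:**
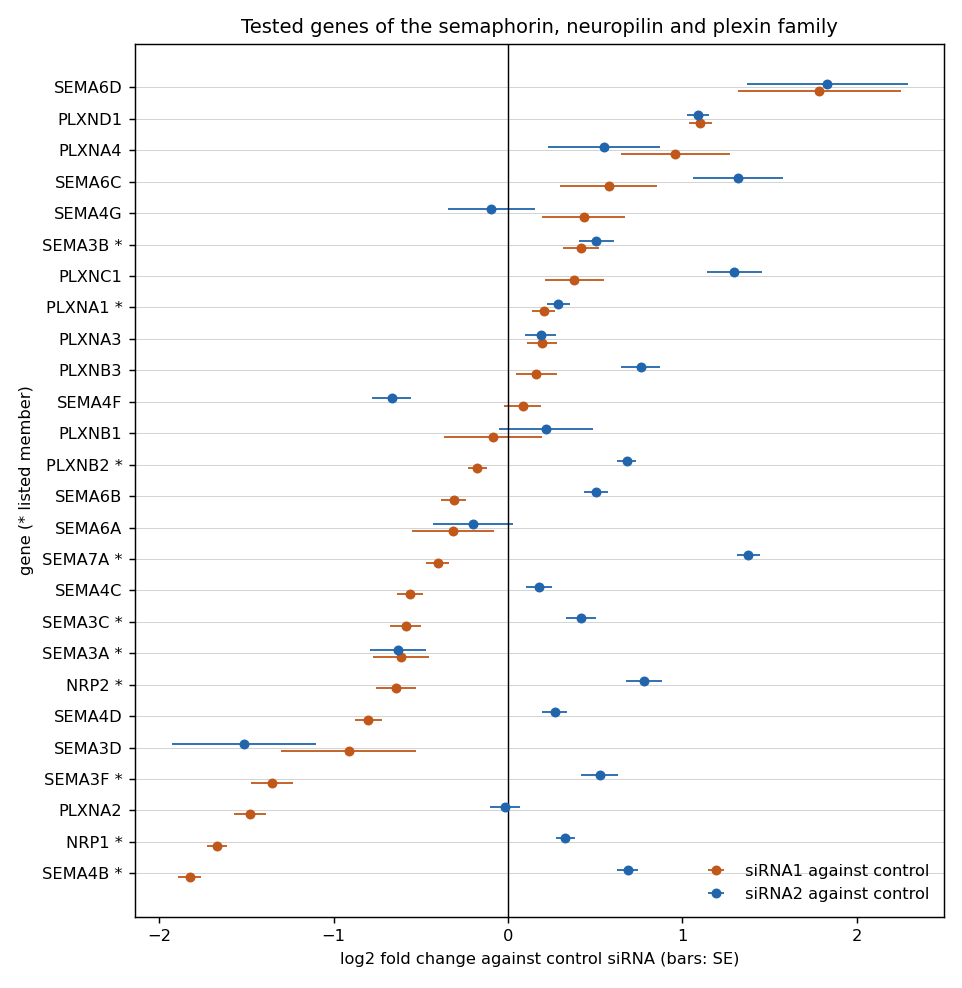
Log2 fold change against control siRNA (x axis) with its SE (bars) for the 26 tested genes of the family (y axis, ordered by the siRNA1 value), for siRNA1 in orange and siRNA2 in blue. Stars mark the 10 listed genes. From PLXNB1 down every orange point lies left of 0, and most blue points there lie right of it.

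Of the 16 other tested genes 3 rose and 4 fell with siRNA1, with a median log2 fold change of 0.12, and 50.4% of all tested genes were called. With siRNA2, 8 rose and 2 fell, with a median of 0.24, and 56.1% of all tested genes were called. SEMA4C, SEMA4D and SEMA6B, all membrane-bound ligands, were lower with siRNA1 and higher with siRNA2. SEMA4D, a ligand of plexin B receptors, gave 3.21, 3.24 and 3.25 FPKM in control, 1.78, 2.05 and 1.84 with siRNA1, and 3.90, 3.86 and 3.93 with siRNA2. Its groups did not overlap, and it fell by 0.80 on the log2 scale with siRNA1 (edgeR adjusted p = 3.2e-09) and rose by 0.27 with siRNA2 (0.00263). SEMA6B, second to SEMA7A among the semaphorins by FPKM, fell by 0.31 with siRNA1 (edgeR adjusted p = 0.000618) and rose by 0.50 with siRNA2 (8.95e-07). SEMA4C, a PLXNB2 ligand, fell by 0.56 with siRNA1 (edgeR adjusted p = 7.88e-07) and rose by 0.18 with siRNA2 (0.0398). Leaving out any 1 of 4 libraries ended that last call, with adjusted p of 0.0582 to 0.141 without control replicate 1 or siRNA2 replicate 1, 2 or 3.

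PLXND1 and PLXNA2 took other courses. PLXND1, the receptor of SEMA3E, gave 14.55, 13.44 and 12.04 FPKM in control, 28.83, 28.14 and 30.57 with siRNA1, and 27.45, 28.38 and 29.42 with siRNA2. Both siRNA groups lay at more than any control value and overlapped each other. It rose by 1.10 and 1.09 on the log2 scale (edgeR adjusted p = 3.23e-13 and 3.28e-13). PLXNA2, a partner of NRP1 like PLXNA1, gave 4.85, 4.73 and 4.06 FPKM in control, 1.85, 1.59 and 1.55 with siRNA1, and 4.48, 4.86 and 4.10 with siRNA2. It fell by 1.48 with siRNA1 (edgeR adjusted p = 1.09e-12). With siRNA2 its libraries overlapped control, and the log2 difference was -0.02 with a 95% interval from -0.19 to 0.16. The difference between the siRNAs was 1.46 (SE 0.090).

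The remaining changes were in scarcer genes. PLXNC1, the plexin that binds SEMA7A, was 0.46, 0.34 and 0.32 FPKM in control and 0.95, 0.85 and 0.97 with siRNA2, a rise of 1.30 on the log2 scale (edgeR adjusted p = 1.27e-07). Thus SEMA7A and PLXNC1 were both higher with siRNA2, while the siRNA1 value of PLXNC1, 0.38, missed the threshold (adjusted p = 0.0655). That value was called without control replicate 1 (0.55, edgeR adjusted p = 0.018) or without siRNA1 replicate 3 (0.47, 0.0429). PLXNB3 rose by 0.76 with siRNA2 and SEMA6C by 1.32 (edgeR adjusted p = 2.93e-06 and 0.000109). SEMA4F fell by 0.67 with siRNA2 (edgeR adjusted p = 1.52e-05) and was the 1 family gene called lower with siRNA2 than with siRNA1. SEMA3D, at 5 to 24 counts a library, fell by 1.51 with siRNA2 (0.00308). With siRNA1 SEMA6C and SEMA3D missed the threshold (edgeR adjusted p = 0.0877 and 0.0531). Leaving out siRNA1 replicate 2 gave 0.0371 for SEMA6C, and leaving out control replicate 3 gave 0.0244 for SEMA3D.

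SEMA6D was at 4 to 9 counts in control, 12 to 42 with siRNA1 and 20 to 32 with siRNA2, and rose by 1.79 and 1.83 on the log2 scale (edgeR adjusted p = 0.00251 and 0.00153). PLXNA4 rose by 0.96 with siRNA1 (edgeR adjusted p = 0.0125), but its siRNA1 and control libraries overlapped. Its call ended without control replicate 2 (0.0605) or siRNA1 replicate 2 (0.103). It was also not called in limma, with adjusted p of 0.0909 on log2(FPKM+1) and 0.0551 on log2(FPKM+0.1). Exons of PLXNB3 share 1432 bases with SRPK3 on the same strand, so reads there could belong to either gene.

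Genes that work with the family were counted from lists of co-receptors, neuropilin-binding growth factors, processing proteases and intracellular effectors. Among 9 tested co-receptors of 12 listed, 2 rose and 3 fell with siRNA1, when 50.4% of all tested genes were called in either direction. With siRNA2 7 rose and none fell, when 27.2% of all tested genes rose and 28.9% fell. KDR, the VEGFA receptor that neuropilins assist, was at 0.55, 0.51 and 0.60 FPKM in control, 0.26, 0.32 and 0.32 with siRNA1, and 1.68, 1.55 and 1.59 with siRNA2. It fell by 0.91 with siRNA1 and rose by 1.53 with siRNA2 (edgeR adjusted p = 0.000267 and 3.33e-09). NRCAM, an adhesion protein in some NRP2 complexes, fell by 0.77 with siRNA1 and rose by 0.36 with siRNA2 (edgeR adjusted p = 0.000309 and 0.0395). L1CAM, the adhesion protein that partners NRP1 in the SEMA3A receptor, rose by 1.04 and 0.60 (3.02e-10 and 2.57e-06 in edgeR). ITGA1, a partner of the integrin that SEMA7A binds, rose by 1.32 with siRNA2 (edgeR adjusted p = 1.3e-11) and missed the threshold with siRNA1 (0.994).

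The growth factors that share neuropilins did not move together. VEGFA gave 17.59, 16.95 and 16.73 FPKM in control, 8.69, 8.39 and 8.77 with siRNA1, and 6.95, 6.59 and 6.73 with siRNA2. It fell by 1.01 and 1.34 on the log2 scale (edgeR adjusted p = 2.06e-13 and 1.23e-15). PGF, another NRP1 ligand, rose by 1.35 and 0.61 (edgeR adjusted p = 8.42e-13 and 9.15e-07). VEGFC, which binds NRP2, fell by 0.37 with siRNA1 and rose by 0.31 with siRNA2 (edgeR adjusted p = 0.000208 and 0.000744). Of 5 listed ligands 4 were tested, with 1 higher and 2 lower with siRNA1 and 3 higher and 1 lower with siRNA2, beside the same shares of all tested genes.

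All 6 processing proteases were called with siRNA1, 3 higher and 3 lower, and 4 were higher with siRNA2, beside 50.4% and 56.1% of all tested genes called. ADAM10, which sheds membrane proteins from the cell surface, gave 6.97, 6.19 and 6.04 FPKM in control, 2.35, 2.62 and 2.23 with siRNA1, and 10.33, 11.19 and 11.58 with siRNA2. It fell by 1.44 with siRNA1 and rose by 0.78 with siRNA2 (edgeR adjusted p = 2.86e-14 and 4.45e-10). FURIN, which cuts class 3 semaphorin precursors, rose by 0.36 and 0.80 (edgeR adjusted p = 4.45e-05 and 1.25e-10). ADAM17, the other sheddase of the list, rose by 0.18 and 1.10 (0.0146 and 1.11e-13 in edgeR). PCSK6, a furin relative, rose by 0.95 and 0.91 (1.58e-05 and 2.17e-05 in edgeR). PCSK7 fell by 0.60 with siRNA1 (edgeR adjusted p = 3.18e-06) and was at 0.065 with siRNA2 (0.53).

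Of 33 tested intracellular effectors 11 rose and 9 fell with siRNA1, and 17 rose and 8 fell with siRNA2, beside 50.4% and 56.1% of all tested genes called. The first 4 genes named have the largest called changes of the list at a mean of at least 1 CPM. RRAS, whose activity plexins switch off, gave 22.18, 22.03 and 22.00 FPKM in control, 35.52, 31.96 and 35.82 with siRNA1, and 65.34, 62.04 and 62.65 with siRNA2. It rose by 0.62 and 1.52 (edgeR adjusted p = 4.67e-07 and 2.28e-14). RHOD rose by 1.31 and 2.23 (2.43e-07 and 3.96e-12 in edgeR). RND1, which binds plexin A1, was at 0.03 to 0.10 FPKM in control and rose by 1.86 and 2.57 (edgeR adjusted p = 0.0012 and 9.35e-06). PAK1, a kinase downstream of Rac, fell by 1.51 and 0.34 (1.14e-11 and 0.0039 in edgeR). Some small GTPases of the list fell with only 1 of the siRNAs, and these are named after their values were seen. RAP1B fell by 1.02 with siRNA1 (edgeR adjusted p = 9.82e-12) and was at 0.027 with siRNA2 (0.758). With siRNA2 RAC1 fell by 0.59 and MRAS by 0.72 (2.5e-09 and 0.00443 in edgeR). With siRNA1 RAC1 was at 0.083 (edgeR adjusted p = 0.232) and MRAS rose by 0.57 (0.0117). RRAS2 rose with both siRNAs and RND3 with siRNA1, while RAP1A and RHOA were not called with either.

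The 3′ UTR words shown at the start were set beside these values. The siRNA1 word lies in 23.8% of the 12589 tested genes with an annotated 3′ UTR. The share depends on length, from 6.64% of UTRs under 1000 bases to 18.7% at 1000 to under 2000, 37.1% at 2000 to under 4000 and 61.1% of longer ones. SEMA4B, with a UTR of 1033 bases, holds all 8 letters once, starting 287 bases after the stop codon. NRP1, with 2584 bases, holds 2 sites that start 22 bases apart close to the end of its UTR. NRP2 holds 1 site in 3188 bases and SEMA3A 3 sites in 5594. These are UTRs of the longest annotated form, and gene counts do not show which form the cells use.

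The 4 listed genes with the word were each lower with siRNA1, and their median log2 fold change was -1.16. The 6 without it had a median of -0.29, with 4 lower and 2 higher. SEMA3F and SEMA3C, at -1.35 and -0.59, are among those without it. Over the family, 8 tested genes held the word, of which 6 fell and 1 rose with siRNA1 (median -0.72), and 4 of those 6 are listed genes. Of the 18 without it 6 fell and 4 rose (median 0.0002). Among all tested genes with a UTR, 45.2% of the 2993 with the word fell with siRNA1 and 16.6% rose (median -0.20), against 22.8% and 30.7% of those without it (median 0.05). Genes with and without it were not matched for UTR length, and longer UTRs hold it more often. With siRNA2 the tested family genes with the word had a median of 0.30 and those without it 0.51. The tested family genes with the word that did not fall with siRNA1 were PLXNA3 and PLXNA4. The word linked to transcripts lowered by siRNA2 (GACCCTA or ACCCTAA) lies in 10.9% of tested genes with a UTR and in none of the 10 listed genes. Both words were picked on fold changes of these libraries, so the counts are a description and no independent evidence.

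**Figure D4:**
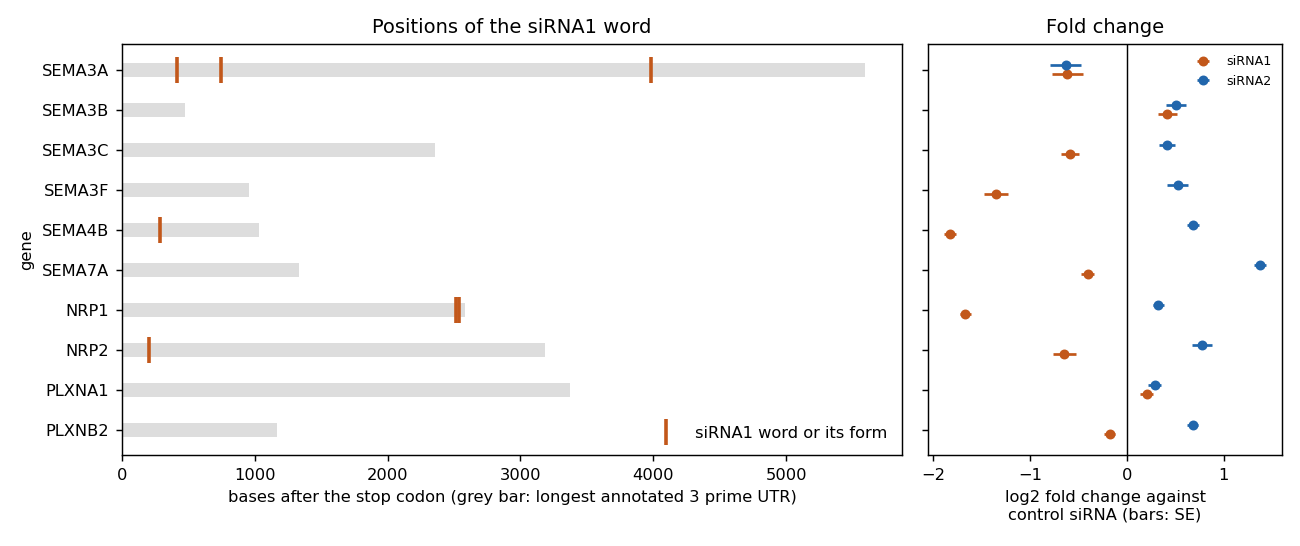
Left, the longest annotated 3′ UTR of each listed gene (grey bar, bases after the stop codon) with the start of each siRNA1 word as an orange mark. Right, log2 fold change against control with its SE for siRNA1 (orange) and siRNA2 (blue). SEMA4B and NRP1, with the lowest siRNA1 values, carry marks, and SEMA3F, the next lowest, carries none.

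For each listed gene the most similar profile was sought among 9560 candidates, which were tested genes with a mean of at least 5 CPM. Symbols of clone, accession or noncoding form, or ending in P and a number, were left out. The closest gene had the smallest root mean square difference of centred log2 CPM over the 9 libraries. NRP1 was closest to OSBP, with a difference of 0.047, and PLXNB2 to EHBP1L1, with 0.040. SEMA4B was closest to GALC (0.119), SEMA3F to LOXL2 (0.126) and SEMA7A to ZC3H12A (0.078). SEMA3C was closest to ARHGEF11 (0.070), NRP2 to MARCHF3 (0.0997), PLXNA1 to GBF1 (0.051), SEMA3A to MRTFB (0.079) and SEMA3B to UBE2L6 (0.077). ARHGEF11 is also on the effector list, as the exchange factor that plexin B receptors engage. No family member was the closest gene of another, but NRP1, NRP2 and family genes below the 5 CPM minimum could not be chosen. Nothing is read from this.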

How the data were processed

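RNA of 9 MDA-MB-231 libraries, 3 per group by their labels, was analysed from a table holding a count per gene and library and an FPKM value, both deposited by the authors. The submitters' processing notes list hg19 with HTSeq 0.6.1, DESeq, HISAT2 2.0.1 and Trimmomatic 0.30. The table's coordinates are those of GRCh38, overlapping the same gene for 99.979% of 58394 identifiers in GENCODE v29. The deposited FPKM equals count over exonic length and library total. The sources used here do not state strandedness.

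Counts were filtered with filterByExpr (minimum count 10, total 15). They were TMM-scaled and analysed in edgeR 4.0.16 (quasi-likelihood, 1 fit of 3 groups, two-sided, Benjamini-Hochberg over 15345 genes, call at an adjusted p below 0.05) in R 4.3.3. The edgeR step was tested on simulated counts. Each SE is the log2 fold change over the root of F. Alternatives were limma 3.58.1, DESeq2 1.42.0, other filters and scalings, a replicate block and left-out libraries. Named genes are the 10 listed, every other family gene called, MILIP, the closest genes, and the 3 largest changes per list and siRNA at a mean of at least 1 CPM. The listed genes, gene lists and words were chosen with earlier results of these data known.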

Additional observations from a re-analysis of the deposited data

How the results depend on the processing

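Against control, the listed genes kept their direction and side of the threshold in every alternative run except for PLXNA1 and PLXNB2 with siRNA1, each when 1 control library was left out. The robust form of edgeR, added after the data were seen, changed none of their calls. On the log2(FPKM+1) scale low genes shrink by construction (NRP2 with siRNA1 to -0.28), and SEMA3A has no value at a minimum mean FPKM of 1. Whole-family counts moved in few settings. A minimum mean FPKM of 1, which tests fewer genes, left 3 higher with siRNA1 and 1 lower with siRNA2. For siRNA2 against siRNA1 the count lower was 2 with no filter on low counts and 1 to 2 with libraries left out. Values near 0 changed sign. SEMA3A, siRNA2 against siRNA1, was 0.010 with median-of-ratios scaling, 0.016 with no filter, 0.0090 with only the 2 groups, 0.011 in DESeq2 and -0.11 to 0.075 with libraries left out. PLXND1 in that comparison was 0.012, 0.018, 0.0100, 0.012 and -0.045 to 0.022 in the same order, and 0.0024 at the FPKM minimum. SEMA6D there was -0.34 to 0.60 with libraries left out. PLXNA2 with siRNA2 was 0.0043 with median-of-ratios scaling, 0.012 with no filter, 0.017 at the FPKM minimum, 0.0039 in DESeq2 and -0.089 to 0.049 with libraries left out. The cause was not tested. SEMA3D, SEMA6D and PLXNA4 had 5 to 24, 4 to 42 and 14 to 55 counts a library.

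The labels state no pairing of libraries by replicate number. Same-numbered libraries correlated at -0.051 to 0.097 in their deviations from group means, and those of other numbers at -0.1355 to 0.139. With so few libraries per group these correlations cannot exclude pairing. With the replicate block the whole-family count lower for siRNA2 against siRNA1 was 2 instead of 1, and the counts with siRNA1 were 6 higher and 12 lower.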

Other observations

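Of 40 netrin, slit, robo, ephrin and Eph genes listed, 24 were tested. With siRNA1 11 rose and 5 fell, and with siRNA2 5 rose and 6 fell, beside 50.4% and 56.1% of all tested genes called in either direction. EPHB3, an Eph receptor, was at 0.12, 0.04 and 0.15 FPKM in control and 0.48, 0.42 and 0.59 with siRNA1, and rose by 2.16 on the log2 scale (edgeR adjusted p = 4.03e-05). EFNA1, an ephrin ligand, rose by 1.64 with siRNA1 and NTN4, a netrin, by 1.37 (edgeR adjusted p = 1.66e-11 and 4.58e-11). With siRNA2 EFNB1 fell by 1.37, EPHB2 rose by 1.32 and ROBO4 rose by 1.04 (edgeR adjusted p = 1.05e-06, 2.33e-15 and 7.93e-13).

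Exons of SEMA3F share 110 bases with SEMA3F-AS1 on the opposite strand, whose mean level was 1.83 CPM. The antisense partners of NRP1 and NRP2 share 561 and 147 exonic bases with them and stood at 0.051 and 0.037 CPM. Fibroblast markers summed to 3.41 to 4.45 CPM in control, 5.23 to 5.90 with siRNA1 and 8.04 to 10.6 with siRNA2, and neuron markers to 19.4 to 19.9, 33.0 to 36.0 and 16.1 to 18.0 CPM in the same order. COL6A3 made up nearly all of the fibroblast sum and TUBB3 of the neuron sum, and the other genes of both lists had too few counts to be tested. CD14, a monocyte marker, was at 1.73, 1.85 and 2.76 CPM in control, 1.14, 0.674 and 2.21 with siRNA1, and 8.49, 8.17 and 8.79 with siRNA2. It rose by 1.99 on the log2 scale with siRNA2 (edgeR adjusted p = 6.37e-08). PTPRC, which marks leukocytes in general, was at 0 in all control and siRNA2 libraries. Their part in the family's values was not tested.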
